A study of Homo sapiens with 8 samples.

Results

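Keratins are the intermediate filament proteins of epithelial cells, and each filament is built from pairs of a type I and a type II keratin. KRT8 and KRT18 are the pair of simple, single-layered epithelia, where KRT7 and KRT19 often accompany them. KRT4 and KRT13 are the pair of the upper layers of moist stratified linings such as mouth and oesophagus, whereas skin epidermis uses KRT5 with KRT14 in its basal layer and KRT1 with KRT10 above it. The RNA of 8 simple and mucosal keratins is described here, 4 of type II (KRT4, KRT7, KRT8 and KRT80) and 4 of type I (KRT13, KRT18, KRT19 and KRT23), out of 24252 genes in each table and 55 keratin genes.

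The genes were found by symbol, and each of the 8 symbols matched 1 row. As a group they had been chosen by their class with the difference between the OGD-R and Control libraries already known, so their differences between those groups are a description and carry no test. All libraries came from HaCaT, an immortalised human skin keratinocyte line. By its title, the series looked for a hub gene of complex regional pain syndrome. There were 4 libraries of Control cells, for which the labels give no treatment, and 4 of cells put through oxygen and glucose deprivation and its reversal (OGD-R) and taken at a stage the series calls early; durations were not stated. FPKM, the unit of all levels given here, scales sequenced fragments by transcript length and by sequencing depth, so levels of different genes can be set side by side. In bulk RNA, a change in the number of cells of a kind and a change in RNA per cell cannot be told apart. Nothing in the labels says that the replicates were separate cultures, so any spread and any p measures these libraries, and the spread may be technical.

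The Control libraries did not lie together. Across 11740 genes averaging 1 FPKM or more, log2 values correlated at 0.992 between Controls 1 and 2, at 0.991 between Controls 3 and 4, and between 0.874 and 0.881 across these pairs; these values run across genes, which are not replicates. Libraries of OGD-R correlated between 0.992 and 0.993 with each other. For the 8 keratins each Control is therefore given singly, and differences are also given with either pair left out; for other named genes that passed the test, this is done where leaving out a pair moved the fold by over 1.5 times. The summed level of the 8 keratinocyte markers examined was 7368 to 8530 FPKM in Control and 10776 to 11902.5 FPKM in OGD-R, most of it KRT5 and KRT14. Singly, KRT5, KRT14 and DSG3 were higher in every OGD-R library than in any Control. ITGB4 and SFN were lower in every OGD-R library, and COL17A1, ITGA6 and TP63 overlapped. All 8 were above 1 FPKM on average. Of the markers of other cell types, none of 5 endothelial, 1 of 7 fibroblast (COL1A1), 1 of 5 leukocyte (CD68), 1 of 6 melanocyte (MITF) and 2 of 10 glandular genes (KRT20 and SCGB1A1) reached that mean. Their summed levels in Control and OGD-R were 0.0645 to 0.199 and 0.296 to 0.482 FPKM (endothelial), 0.904 to 8.72 and 3.84 to 5.08 FPKM (fibroblast), 12.4 to 16.8 and 3.21 to 3.97 FPKM (leukocyte), and 1.21 to 1.60 and 2.29 to 2.62 FPKM (melanocyte). COL1A2, TYR and TFF1 were at 0 in every library. The glandular list spanned 2.04 to 425 FPKM in Control and 313 to 431 FPKM in OGD-R through SCGB1A1, a secretoglobin, which was at 2.63, 1.99, 344 and 421 FPKM in Controls 1 to 4. The part of these genes in the keratin values was not tested.

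All 8 proteins share a related stretch in the later part of their helical rod. The coding bases of that stretch show how alike the RNAs are there, not over their whole length. The 42 coding bases printed per gene are from the GENCODE 29 transcript with the longest complete coding sequence. Capitals mark the codons found by an in-frame search of the coding strand for NANTAN, then 6 bases, then CTNNTG, which matched once in each gene.
KRT4: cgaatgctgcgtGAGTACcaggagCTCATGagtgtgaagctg
KRT7: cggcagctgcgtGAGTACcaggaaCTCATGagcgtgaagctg
KRT8: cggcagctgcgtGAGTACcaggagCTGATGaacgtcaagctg
KRT80: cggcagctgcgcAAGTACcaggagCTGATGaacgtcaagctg
KRT13: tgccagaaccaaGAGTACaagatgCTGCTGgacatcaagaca
KRT18: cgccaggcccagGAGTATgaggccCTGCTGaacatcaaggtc
KRT19: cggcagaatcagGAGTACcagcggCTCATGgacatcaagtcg
KRT23: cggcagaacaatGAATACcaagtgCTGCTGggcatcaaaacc

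The first 4 are type II and the last 4 type I. Within type II the stretch was identical at 33 to 40 of 42 bases, with KRT8 and KRT80 the closest pair, and KRT7 and KRT8 matched at 38. Within type I it matched at 26 to 31 bases, and across the types at 20 to 30. Identical runs of at least 50 coding bases were also searched for in other genes. KRT18 shared one with 43 genes, all named as KRT18 pseudogenes, and KRT8 with 36, of which 33 are named as KRT8 pseudogenes. KRT7 shared such a run with 7 genes, among them KRT6A, KRT6B and KRT6C, KRT13 with KRT15, and KRT19 with the pseudogene KRT19P1, while KRT4 and KRT23 shared none. KRT80 shared such runs with KRT8 and with the pseudogene KRT8P3, and its longest identical run with KRT8 was 65 bases. No source used here says how reads that fit several genes were divided, so the levels of KRT8, KRT18 and the other genes with such runs are uncertain to that extent.

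The genes lie in the keratin clusters of chromosomes 12 and 17 (GENCODE 29, GRCh38), and all are protein coding. The type II genes are on chromosome 12: KRT80 at 52168996 to 52192000 (minus strand), KRT7 at 52232520 to 52252186 (plus strand), KRT4 at 52806549 to 52814551 (minus strand) and KRT8 at 52897187 to 52949954 (minus strand). KRT18 is the member of type I that lies beside them, at 52948871 to 52952901 of chromosome 12 on the plus strand. On chromosome 17, all on the minus strand, are KRT23 (40922696 to 40937634), KRT13 (41500981 to 41505705) and KRT19 (41523617 to 41528308). The annotated spans of KRT8 and KRT18 overlap by 1084 bases on opposite strands. KRT13, KRT23 and KRT80 each overlap a noncoding gene on the other strand, and KRT7 overlaps KRT86, an antisense RNA and a pseudogene. Whether the counting used strand is not given, so reads from such overlaps cannot be told apart.

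The mucosal pair was higher in every OGD-R library than in any Control library. In Control libraries 1 to 4, KRT4 measured 6.68, 5.52, 88.1 and 75.5 FPKM, and in OGD-R 1 to 4 it measured 458, 412, 428 and 412 FPKM. Controls 1 and 2 were low, Controls 3 and 4 were higher, and the lowest OGD-R library was 4.68 times the highest Control. KRT13 was at 71.1, 60.8, 303 and 297 FPKM in the Controls and at 946, 764, 843 and 824 FPKM in OGD-R. The order of the libraries was the same, and the lowest OGD-R library was 2.52 times the highest Control. On the log2(FPKM + 1) scale the difference between groups was 4.15 ± 0.88 for KRT4 and 2.57 ± 0.55 for KRT13 (SE from the limma fit, n = 4 per group). With Controls 3 and 4 left out, the values were 5.92 for KRT4 and 3.66 for KRT13; leaving out Controls 1 and 2 instead gave 2.37 and 1.49.

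The 250 bases upstream of the RefSeq start of KRT4 are shown because KRT4 had the largest difference of the 8 genes. They lie on GRCh38.p14 at chr12:52814117-52814366 and are written along the minus strand, 5′ to 3′. Capitals mark a match to TATAA that starts 29 bases before the start site.
KRT4: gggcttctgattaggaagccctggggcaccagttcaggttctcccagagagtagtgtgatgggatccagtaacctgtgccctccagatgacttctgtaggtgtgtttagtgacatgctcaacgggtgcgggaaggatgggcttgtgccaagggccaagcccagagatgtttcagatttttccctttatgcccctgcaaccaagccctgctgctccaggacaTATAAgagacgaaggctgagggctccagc

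TATAA was present on either strand in 18.9% of the 35116 windows of this length in the RefSeq table. The KRT4 window held none of the other motifs searched on both strands, namely TGANTCA, the AP-1 motif (6.57% of windows), AGGTCA, a nuclear receptor motif (12.1%), and CCAAT (32.0%). No searched motif overlaps another in this window. Of the 8 genes, 2 had an entry, and the window of the other, KRT8, held none of these motifs. These matches are letters only and do not show binding.

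**Figure D1:**
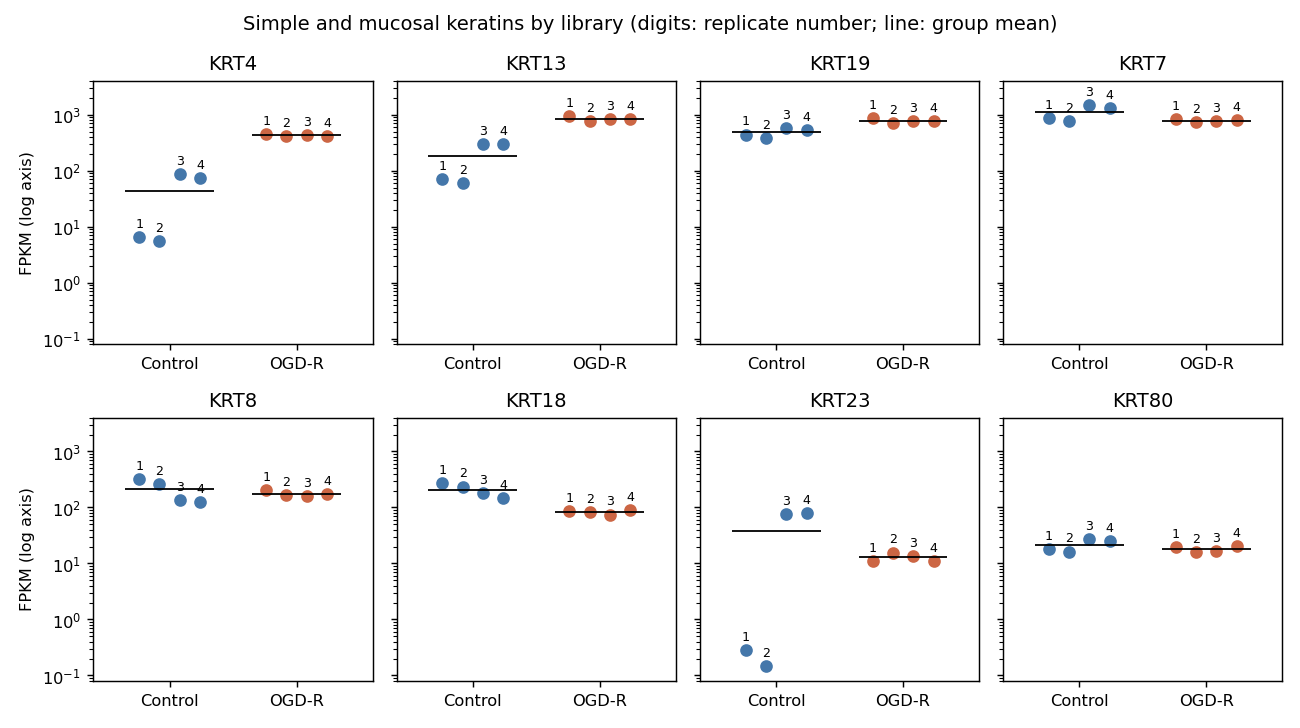
Level of each of the 8 keratins in every library, in FPKM on a log axis; blue points are Control and orange points OGD-R libraries, digits are replicate numbers and black lines are group means. OGD-R lies wholly above Control for KRT4, KRT13 and KRT19 and wholly below for KRT18, while Controls 1 and 2 stand at 0.286 and 0.150 FPKM for KRT23 against 75.2 and 79.1 FPKM in Controls 3 and 4.

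KRT19, the smallest keratin and a type I protein of simple and some stratified epithelia, was also higher in every OGD-R library. In Control libraries 1 to 4 it reached 444, 389.6, 584 and 529 FPKM, against 868, 719, 771 and 762 FPKM in OGD-R 1 to 4. The groups did not overlap, but the gap was small, with the lowest OGD-R library at 1.23 times the highest Control. The log2 difference was 0.69 ± 0.14 (SE), with 0.90 without Controls 3 and 4 and 0.48 without Controls 1 and 2. KRT7, a type II keratin of simple ducts and glands, was at 871, 767, 1511 and 1319.8 FPKM in the Controls and at 826, 746, 767 and 817 FPKM in OGD-R. Controls 3 and 4 were above all other libraries, whereas Controls 1 and 2 lay at the level of OGD-R. The log2 difference of KRT7 was -0.45 ± 0.21 (SE), with -0.05 once Controls 3 and 4 were left out and -0.84 once Controls 1 and 2 were.

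The simple pair KRT8 and KRT18 had different profiles. KRT18 had 269.9, 237, 183 and 146 FPKM in Control libraries 1 to 4 and 86.4, 83.2, 74.9 and 91.3 FPKM in OGD-R. Every OGD-R library lay below every Control, the lowest Control being 1.60 times the highest OGD-R library, and the log2 difference was -1.27 ± 0.19 (SE). Leaving out Controls 3 and 4 gave -1.58, and leaving out Controls 1 and 2 gave -0.96. KRT8 was at 319, 263, 133 and 126 FPKM in the Controls and at 203, 167, 161 and 176 FPKM in OGD-R. The OGD-R libraries lay between the Controls, below Controls 1 and 2 and above Controls 3 and 4. The log2 difference of KRT8 was -0.14 ± 0.30 (SE), and its sign depended on the Controls, with -0.72 without Controls 3 and 4 and 0.44 without Controls 1 and 2.

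KRT23, a type I keratin, and KRT80, a type II keratin found in many epithelia, had low to moderate levels. KRT23 had 0.286, 0.150, 75.2 and 79.1 FPKM in Control libraries 1 to 4 and 10.9, 15.7, 13.5 and 11.1 FPKM in OGD-R. It was nearly off in Controls 1 and 2 and highest in Controls 3 and 4, with all OGD-R libraries between. Taken on a length of 2000 bases, the 2 lowest values amount to 14.3 and 7.12 fragments, so they are imprecise. The SD of log2 values of KRT23 over the Controls was 3.47. The log2 difference of KRT23 was 0.49 ± 1.49 (SE) with all Controls, 3.49 without Controls 3 and 4 and -2.51 without Controls 1 and 2. KRT80 was at 18.3, 16.3, 27.5 and 24.9 FPKM in the Controls and at 19.6, 15.7, 16.4 and 20.8 FPKM in OGD-R. As for KRT7, Controls 3 and 4 were above the rest, and the log2 difference was -0.23 ± 0.18 (SE). It became 0.06 when Controls 3 and 4 were left out and -0.52 when Controls 1 and 2 were.

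**Figure D2:**
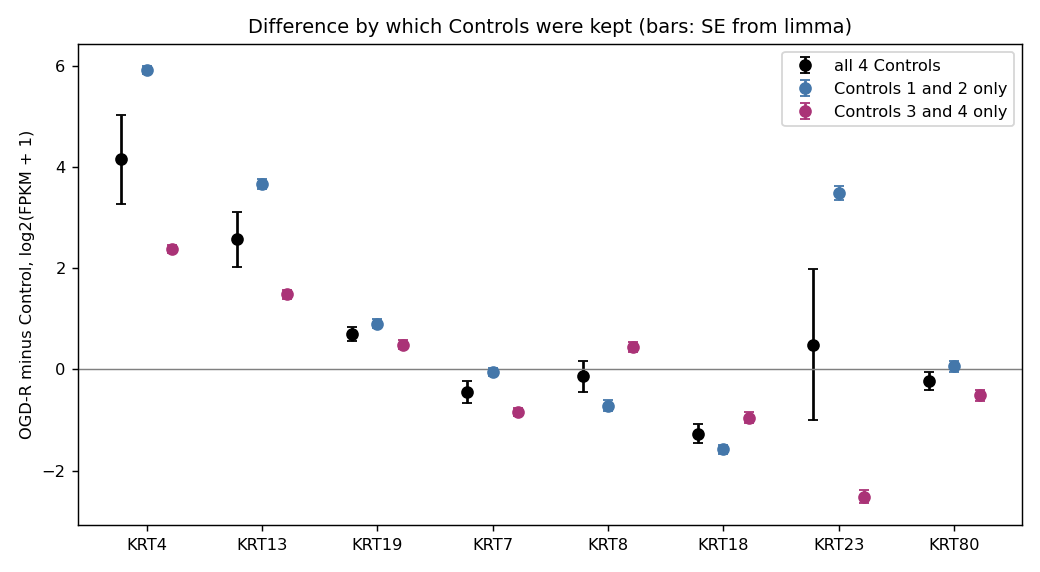
Difference of OGD-R from Control on the log2(FPKM + 1) scale for each of the 8 keratins, with all 4 Controls (black), Controls 1 and 2 only (blue) and Controls 3 and 4 only (purple); bars are standard errors from limma. KRT4, KRT13, KRT19 and KRT18 stay on their side of 0 in all 3 fits, whereas KRT8, KRT23 and KRT80 cross it and KRT7 reaches -0.05.

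Of the 8 genes, OGD-R lay wholly above Control for 3, wholly below for 1 and overlapped for 4. Over the 11740 genes tested, OGD-R lay wholly above in 15.2% and wholly below in 14.8%. Since the genes were chosen with this contrast known, nothing is read from these counts. The median log2 difference of the 8 genes was 0.17, against 0.02 over all genes tested. It was 0.48 against -0.05 without Controls 3 and 4, and -0.04 against 0.09 without Controls 1 and 2. The order of these medians thus depended on the Controls kept. The spread of log2 values of the 8 genes had a median SD of 0.57 among Controls and 0.12 among OGD-R libraries, against 0.29 and 0.09 over all genes. KRT23 and KRT4 varied among the Controls more than 99.97% and 99.6% of tested genes, KRT13 more than 96.8% and KRT19 more than 45.3%.

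In OGD-R the order of levels was KRT13 (844 ± 76.0 FPKM), KRT7 (789 ± 38.7), KRT19 (780 ± 62.9), KRT4 (427 ± 21.5), KRT8 (177 ± 18.8), KRT18 (83.9 ± 6.92), KRT80 (18.1 ± 2.45) and KRT23 (12.8 ± 2.23; SD, n = 4 each). The ranges of KRT13, KRT7 and KRT19 overlapped, so these 3 are not ordered. The lowest KRT80 value, 15.70 FPKM, was only just above the highest KRT23 value, 15.68 FPKM. In Control, KRT7 was first in every library (1117 ± 356 FPKM) and KRT19 second (487 ± 86.6 FPKM; SD, n = 4 each). KRT8 and KRT18 followed in Controls 1 and 2, and KRT13 in Controls 3 and 4.

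The 8 genes together made up 13.1%, 12.5%, 12.3% and 11.7% of the summed FPKM of all 55 keratins in Controls 1 to 4 and 16.6%, 15.0%, 15.5% and 16.1% in OGD-R. Of the summed FPKM of the whole library they made up 0.421%, 0.378%, 0.677% and 0.602% in Controls 1 to 4. In OGD-R that share was 0.625% to 0.723%, so on this measure the groups overlapped. KRT4 and KRT13 accounted for 0.508%, 0.475%, 1.66% and 1.67% of keratin FPKM in the Controls and for 6.81%, 6.04%, 6.39% and 6.38% in OGD-R. KRT8 and KRT18 accounted for 3.85%, 3.58%, 1.34% and 1.22% in the Controls and for 1.18% to 1.40% in OGD-R, which is the level of Controls 3 and 4. KRT7 and KRT19 held 8.28% to 8.88% in Control and 7.53% to 8.21% in OGD-R. By rank among the 55 keratins, KRT13 was between 7 and 10 in the Controls and 5 in each OGD-R library, and KRT18 was between 8 and 10 in the Controls and between 13 and 15 in OGD-R.

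**Figure D3:**
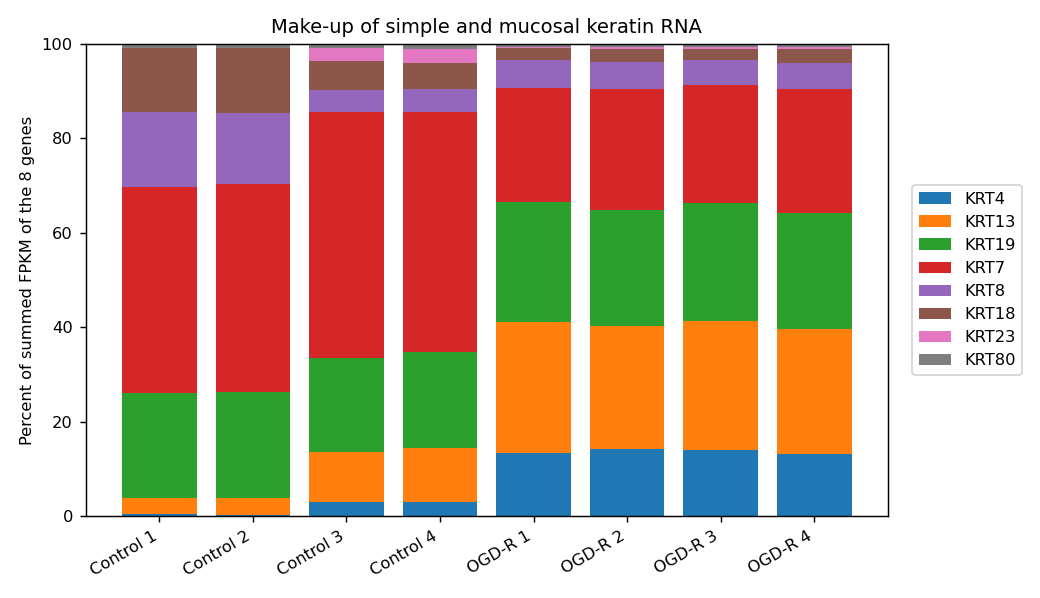
Share of each of the 8 keratins in their summed FPKM, in percent, as stacked bars for each library. KRT4 and KRT13 together take the lowest part of each bar and widen in OGD-R, where KRT7, the widest part in every Control, has 24.2% to 26.2%.

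The balance of partners differed between the groups in each pair. The ratio of KRT8 to KRT18 was 1.18, 1.11, 0.728 and 0.863 in Controls 1 to 4 and 2.35, 2.004, 2.14 and 1.92 in OGD-R. All OGD-R libraries had more KRT8 than KRT18, and no Control reached their lowest ratio. KRT4 to KRT13 was 0.0939, 0.0909, 0.291 and 0.254 in the Controls and 0.484 to 0.539 in OGD-R. KRT7 to KRT19 was 1.96, 1.97, 2.59 and 2.49 in the Controls and 0.951 to 1.07 in OGD-R, where the levels were close to equal. Summed over the 8 genes, type II to type I was 1.55, 1.53, 1.54 and 1.47 in the Controls and 0.788, 0.847, 0.806 and 0.845 in OGD-R. This sum did not show the split among the Controls that most of its genes show. Over all 55 keratins the ratio was 1.07, 1.09, 0.506 and 0.477 in the Controls and 0.924 to 0.948 in OGD-R, so there the OGD-R libraries lay between the Controls.

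**Figure D4:**
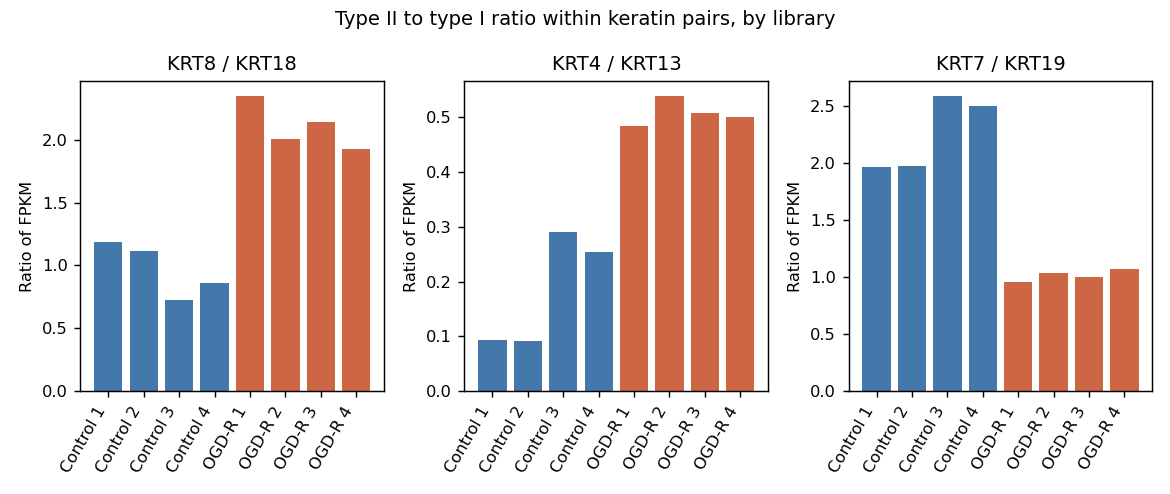
Ratio of the FPKM of the type II to the type I gene in 3 keratin pairs, 1 bar per library, Control in blue and OGD-R in orange. KRT8 to KRT18 is 1.92 to 2.35 in OGD-R against 0.728 to 1.18 in Control, and KRT7 to KRT19 is at least 1.96 in Control and at most 1.07 in OGD-R.

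The other keratins of skin and lining epithelia were examined as a list and tested with limma. The lists below were set with earlier results of these data known, so their counts are no independent evidence. Of 21 keratins listed, 13 were tested, of which 6 rose in OGD-R, 1 fell and 6 did not pass, with a median log2 difference of 0.41. Over all genes, 10.2% were called higher and 9.69% lower. KRT15, a basal keratin of stratified epithelia and hair follicle, was at 57.7, 55.2, 104 and 121 FPKM in the Controls and at 636 ± 42.6 FPKM (n = 4, SD) across OGD-R, a log2 difference of 2.98 ± 0.26 (SE; limma adjusted p = 0.000256). KRT5, the type II keratin of the basal layer, had a log2 difference of 1.01 (limma adjusted p = 0.00187) and was at 3027, 2792, 2215 and 1984 FPKM in the Controls. The suprabasal keratin KRT1 and its relative KRT77 rose by log2 differences of 3.66 and 1.17 (limma adjusted p = 0.00436 and 0.00221), KRT77 from below 1 FPKM in every Control. KRT1 was at 6.33, 4.64, 31.8 and 29.7 FPKM in the Controls, and its log2 difference was 4.81 with Controls 3 and 4 left out and 2.50 with Controls 1 and 2 left out. KRT6A, a keratin of wounded and activated epidermis, fell by 0.26 on the log2 scale (limma adjusted p = 0.0296). KRT17, also of activated epidermis, was at 2346, 2089, 9933 and 9796 FPKM in the Controls and at 2084 to 2435 FPKM in OGD-R. It did not pass (limma adjusted p = 0.203). Its log2 difference was 0.01 with Controls 3 and 4 left out and -2.14 with Controls 1 and 2 left out. KRT6A kept its call in 2 of 8 fits that each left out 1 library. Leaving out Controls 3 and 4 gave 9 higher and 2 lower of the 13, and leaving out Controls 1 and 2 gave 7 and 5. Over all genes, the first of these fits called 22.8% higher and 32.4% lower, and the second 39.2% and 28.4%, so list counts in them are to be read against those shares.

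**Figure D5:**
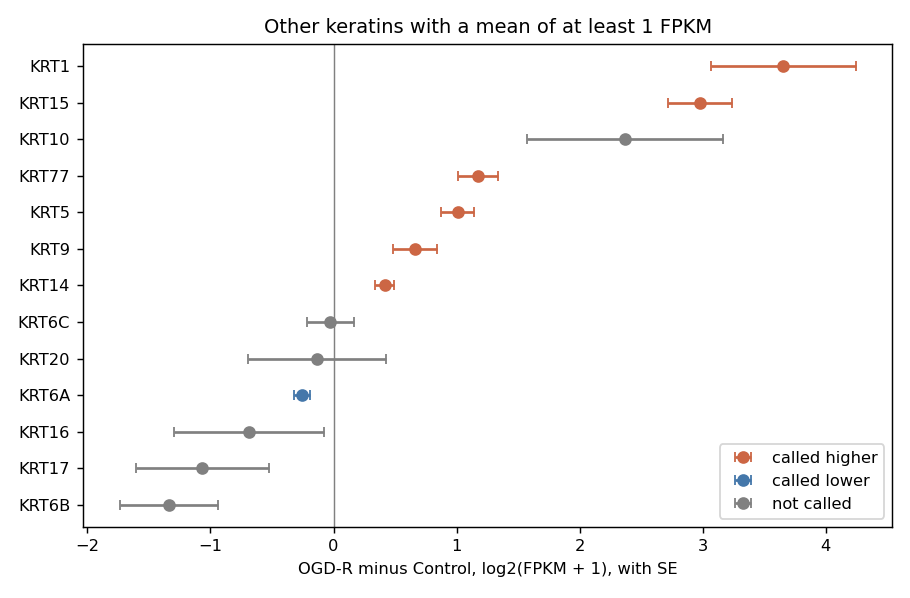
Difference of OGD-R from Control on the log2(FPKM + 1) scale, with its standard error, for the 13 tested of the 21 listed keratins. Orange points were called higher, blue lower and grey not called at a limma adjusted p of 0.05. KRT34 and KRT81 also averaged 1 FPKM or more but were not on the list. KRT1 and KRT15 lie farthest to the right at 3.66 and 2.98, and KRT10, at 2.37, has a wide error and was not called.

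A further list held 25 epithelial genes found in simple or mucosal linings, though many are not particular to them. Of these, 16 were tested, 2 rose, 0 fell and 14 did not pass limma, with a median log2 difference of 0.21. Over all genes, 10.2% were called higher and 9.69% lower. At an unadjusted limma p under 0.05, 8 were higher and 1 lower, against 17.2% and 17.0% of all genes. AGR2, a protein disulfide isomerase of mucus-making cells, was at 1.39, 1.30, 3.005 and 2.93 FPKM in the Controls and at 14.0 ± 2.96 FPKM (n = 4, SD) across OGD-R (log2 difference 2.27 ± 0.24 SE; limma adjusted p = 0.000696). MUC1, a membrane mucin, had a log2 difference of 0.96 (limma adjusted p = 0.0110). CRNN and MAL, which mark the upper layers of oesophageal epithelium, averaged under 1 FPKM and were not tested. MAL was at 0, 0, 0.249 and 0.106 FPKM in the Controls and at 0.521 to 0.862 FPKM in OGD-R, and CRNN was at most 0.357 FPKM in any library. Of the 16, 13 were higher and 1 lower when Controls 3 and 4 were left out, and 4 and 6 when Controls 1 and 2 were; the shares over all genes were 22.8% and 32.4%, and 39.2% and 28.4%.

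Of 18 genes for proteins that anchor or bind keratin filaments, all tested, 4 rose, 5 fell and 9 did not pass limma, with a median log2 difference of 0.14. These calls stand beside 10.2% called higher and 9.69% lower over all genes. PKP1, a desmosomal plaque protein of the upper epidermis, was at 102, 104, 149 and 142 FPKM in the Controls and at 278 ± 12.3 FPKM (n = 4, SD) across OGD-R (log2 difference 1.17; limma adjusted p = 0.00123). EVPL and PPL, the plakins envoplakin and periplakin, had log2 differences of 0.93 and 0.83, and DST, which encodes the hemidesmosomal plakin BPAG1, one of 0.93 (limma adjusted p = 0.00135, 0.0181 and 0.0109). The call of PPL held in 5 of 8 fits with 1 library left out. PKP2, the plakophilin of simple epithelia and heart, fell by 0.72, and PLEC, the filament crosslinker plectin, fell by 0.87 on the log2 scale (limma adjusted p = 0.00228 and 0.00237). FAM83H, which binds keratins and recruits casein kinase 1, fell by 0.60, and STUB1, a ubiquitin ligase, fell by 0.40 (limma adjusted p = 0.00388 and 0.0115). The counts were 7 higher and 6 lower when Controls 3 and 4 were left out, and 7 and 8 when Controls 1 and 2 were, beside the same shares over all genes. Of the other intermediate filament genes 5 of 15 were tested, 0 rose and 1 fell, BFSP1, by 0.60 on the log2 scale (limma adjusted p = 0.0356), a call that held in 3 of 8 fits with 1 library left out. At an unadjusted limma p under 0.05, 0 of these were higher and 1 lower, against 17.2% and 17.0% of all genes. Leaving out Controls 1 and 2 gave 4 higher and 1 lower, against 39.2% and 28.4% of all genes. Leaving out Controls 3 and 4 gave 0 and 3, against 22.8% and 32.4%.

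Of 32 transcription factors linked to keratin genes, 30 were tested, 8 rose, 3 fell and 19 did not pass limma, with a median log2 difference of 0.22; over all genes, 10.2% were called higher and 9.69% lower. GRHL3, a barrier regulator, had a log2 difference of 1.38, GATA3, a factor of epidermis and hair follicle, one of 1.08, and CEBPA, a factor of differentiating keratinocytes, one of 1.07 (limma adjusted p = 9.54e-05, 0.000512 and 0.00054). The retinoic acid receptors went opposite ways. RARG was at 20.5, 18.1, 21.8 and 19.9 FPKM in the Controls and at 43.7 ± 0.746 FPKM (n = 4, SD) across OGD-R (log2 difference 1.09; limma adjusted p = 0.000142). RARA was at 20.5, 17.8, 20.8 and 22.3 FPKM in the Controls and at 13.0 ± 0.650 FPKM (n = 4, SD) across OGD-R, and fell by 0.61 on the log2 scale (limma adjusted p = 0.0034). FOSL1, an AP-1 subunit, fell by 2.84 and ETS1 by 1.72 on the log2 scale (limma adjusted p = 2.56e-05 and 0.0282), ETS1 from 29.1, 28.6, 103 and 96.2 FPKM in Controls 1 to 4; its call held in 2 of 8 fits with 1 library left out. ETS1 fell by 0.85 with Controls 3 and 4 left out and by 2.60 with Controls 1 and 2 left out. ELF3, an epithelial factor, was at 1.04, 0.843, 31.3 and 27.3 FPKM in the Controls and at 15.0 to 19.8 FPKM in OGD-R, so OGD-R again lay between the Controls, as for KRT23, and it did not pass (limma adjusted p = 0.412). Among the 30 factors, 21 were higher and 6 lower when Controls 3 and 4 were left out, and 11 and 13 when Controls 1 and 2 were; over all genes these fits called 22.8% and 32.4%, and 39.2% and 28.4%.

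For each keratin the genes of most similar profile were found by Pearson's r of log2 values over the 8 libraries. The libraries fall in 3 places, so r mainly measures the order and spacing of these places, and it is given without a p. Closest to KRT4 were BRWD3, IGFBP3 and ATP6V1B1 (r = 0.997 each), and closest to KRT13 were PPL, HES2 and IGFBP3 (r = 0.998 each). IGFBP3, a binding protein of insulin-like growth factors, was at 45.9, 46.2, 152 and 147 FPKM in the Controls and at 285 to 355 FPKM in OGD-R. For KRT19 these were NBEAL2, SSH3 and LRP1 (r between 0.988 and 0.991), and for KRT18 DCTD, YDJC and TMEM104 (r between 0.995 and 0.997). KRT8 was closest to TRAP1, RABL6 and LSM10 (r between 0.994 and 0.996), while r between KRT8 and KRT18 themselves was 0.489. KRT23 was closest to SAA1, an acute phase protein gene, BBOX1 and KLK7 (r between 0.996 and 0.998). SAA1 was at 3.40, 3.93, 76.5 and 80.8 FPKM in the Controls and at 19.5 to 23.8 FPKM in OGD-R. KRT7 was closest to SLC35C1, SLC15A4 and MELTF (r between 0.992 and 0.997), and KRT80 to PTPN2, MAGED2 and HECTD3 (r between 0.970 and 0.980).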

How the data were processed

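The 4 Control and 4 OGD-R libraries of HaCaT cells were assigned to groups from their titles. Total RNA was used, and both a NEBNext and a SMARTer kit are named, per the labels' protocols. Aligner, counting tool, build and annotation: not given in the sources used here. For each library the authors deposited a table of ID, symbol and value, taken here to be FPKM from the values themselves: the sums, 428984 to 475385, differ between libraries, and low values of some single-exon genes lie at steps inverse to length. From that spacing, 1 fragment on 2000 bases was worth 0.0200 to 0.0296 FPKM; in each library, 11 to 19 of 117 to 147 low values lay within 0.5% of the step, so this depth is approximate.

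Tests used log2(FPKM + 1) and limma 3.58.1 in R 4.3.3 (intensity trend, two-sided, Benjamini-Hochberg over all genes tested, threshold 0.05) in 11740 genes averaging 1 FPKM or more, 4 against 4 libraries. This scale understates changes of low genes. The 8 keratins, the lists and the alternatives were chosen with earlier results of these data known. From each list, up to 4 called genes of smallest p per direction are named. A few uncalled genes (KRT17, KRT10, ELF3, CRNN, MAL) were picked after their values were seen. Annotation and coding sequences are GENCODE 29, matched by ID, and the upstream sequence is from RefSeq on GRCh38.p14, where 2 of 8 genes matched. The test was tried on simulated data with independent noise at the spread of the OGD-R libraries. The wider spread of the Controls and their split were not simulated, so the trial does not cover them. Figures were drawn with matplotlib 3.10.9.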

Additional observations from a re-analysis of the deposited data

How the results depend on the processing

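The log2 differences of KRT4, KRT13, KRT19, KRT7 and KRT18 kept their sign under every alternative run. That of KRT8 turned positive without Controls 1 and 2 (0.44), and leaving out 1 library gave -0.35 to 0.10. That of KRT23 turned negative without Controls 1 and 2 (-2.51), leaving out 1 library gave -0.54 to 1.50, and a pseudocount of 0.1 gave 1.38. That of KRT80 was 0.0568 without Controls 3 and 4. Over all genes, the counts called higher and lower were 1202 and 1138. They were 2673 and 3807 without Controls 3 and 4, and 4603 and 3337 without Controls 1 and 2. Leaving out 1 library gave 711 to 1426 and 561 to 1312, with the low end when an OGD-R library was left out. A filter at a mean of 5 FPKM, which tests fewer genes, gave 689 higher. With the replicate number as a replicate block, 625 were higher and 507 lower. Deviations of same-numbered libraries from their group means correlated at 0.045 to 0.065, and 1 of 4 Controls matched its own number best. Deviations in Control mostly follow the split of Controls 1 and 2 from Controls 3 and 4, which OGD-R lacks. These correlations therefore cannot decide whether the numbers pair the libraries. The block left 0 other keratins lower (1 without it), 3 anchor genes lower (5 without it) and 0 other intermediate filaments lower (1 without it). Without the filter on low values, 5 lining genes were higher (2 with it), 0 other keratins were lower (1 with it), and 1 other intermediate filament gene was higher and 3 lower (0 and 1 with it). With the filter at 5 FPKM, 1 lining gene was higher and 0 other intermediate filaments were lower. Without Controls 3 and 4, 0 other intermediate filaments were higher and 3 lower; without Controls 1 and 2, 4 and 1. Leaving out 1 library gave 0 to 2 other keratins lower, 6 lining genes higher without Control 3, 0 or 1 other intermediate filaments lower, and up to 7 factors lower. The cause of these shifts was not tested. Count-based tests were not run, since the values are not counts. FPKM without counts limits the precision of low values such as KRT23 in Controls 1 and 2.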

Other observations

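The levels of 4 other keratins, chosen after their values were seen, are given here, and 3 of these 4 were lower in Controls 1 and 2 than in Controls 3 and 4. KRT20, a keratin of intestinal epithelium, had 0, 0, 3.49 and 3.94 FPKM in Control libraries 1 to 4 and 0.823 to 1.17 FPKM in OGD-R. KRT75, a keratin of hair follicles, was at 0, 0.0743, 2.73 and 3.25 FPKM in the Controls, and in OGD-R it was at 0.0560 FPKM in 1 library and at 0 in the others. KRT81, a hair keratin, was at 21.4, 15.7, 59.9 and 49.95 FPKM in the Controls and at 11.5 to 16.6 FPKM in OGD-R. KRT3, a keratin of cornea, was at 0.545, 0.571, 0.545 and 0.279 FPKM in the Controls and at 1.22 to 1.73 FPKM in OGD-R, so it lay wholly above without a split.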
